A study of Mus musculus with 16 samples.

Results

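40 genes of the lysosome and of autophagy were followed in splenic B cells, with follicular (FO) cells compared against marginal zone (MZ) cells in each genotype. They were taken by gene symbol from a table of 27928 genes, all 40 symbols were found once, and all 40 passed a filter on low counts. The members are 6 lysosomal membrane proteins, 10 lysosomal proteases, 10 enzymes and cofactors that break down glycans and lipids, 3 transcription factors of the MiT/TFE family and 11 autophagy genes.

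The lysosome is an acidic organelle in which hydrolases, delivered as precursors through the secretory pathway, degrade proteins, glycans and lipids from endocytosis and autophagy. In B cells the same compartment receives antigen taken up through the B cell receptor, and its cathepsins trim the antigen and the invariant chain before peptides are loaded on MHC class II. Autophagy wraps cytoplasm in a membrane marked with lipid-bound LC3 and GABARAP proteins and delivers it to the lysosome. TFEB, TFE3 and MITF, the MiT/TFE factors, bind a motif with the core CACGTG in the promoters of many lysosomal genes.

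FO cells (CD21lo CD23hi) recirculate through B cell follicles, and MZ cells (CD21hi CD23lo) stay beside the blood sinus of the spleen, where they respond quickly to blood-borne antigen. Both were FACS sorted from C57BL/6 mice, after negative selection of B cells, and RNA was sequenced from 2 libraries in each of 4 groups. The WT groups have no floxed allele or Cre in their labels, and the cKO groups carried homozygous floxed alleles of Gtf2i, which encodes the transcription factor TFII-I, with a Cre that is expressed in the B lineage. Labels do not say whether replicates came from separate mice, so each p-value measures only the spread between these libraries.

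Each library held 21546552 to 25083552 reads on genes. Gtf2i was at 1523 to 1889 normalized counts in the cKO libraries and at 1992 to 2864 in the WT libraries, a measure over the whole gene that does not separate the deleted exons. Fcer2a (CD23) was at 24802 to 41973 in FO and 3070 to 6708 in MZ libraries, and the 4 MZ markers summed to 24216 to 28246 in FO and 102582 to 116291 in MZ, so the subsets matched their labels. Ddx3y, a Y-linked gene, was at most 6.34 in WT and at least 2682 in cKO libraries, so that genotype and sex-linked transcripts cannot be told apart. The RNA Xist, made from an inactive X chromosome, reached 25929.5 or more in every WT library. In cKO it reached 14748 in FO replicate 1, against 21.7 to 89.7 in the remaining libraries, so sex-linked transcripts also differed between FO and MZ within cKO. In cKO MZ replicate 1 the granulocyte markers summed to 2067 and the erythroid markers to 13342, against 59.3 to 136 and 30.9 to 1016 in the other libraries.

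The CACGTG core was searched in the promoters of the members, because members of the lysosome are its best known targets. RefSeq promoter windows on GRCm38.p6, 250 bases before to 50 bases after a start, were matched by symbol for 34 of the 40 members, all but Asah1, Becn1, Ctsb, Ctsh, Map1lc3a and Npc1. CACGTG, which reads the same on both strands, was in 11 of the 34 (32.4%) and in 8.09% of all 27025 genes with a window. The longer TCACGTGA, which contains it, was in Ctsa, Ctsd and Mcoln1 (8.82% of the 34) and in 1.12% of all genes. Stretches of 30 bases around CACGTG, in capitals, are shown for these 3 genes, for Lamp1, whose window holds 4 copies, and for Gaa and Lgmn, the members that hold the core and were called between FO and MZ below. Each is written 5′ to 3′ on the strand of its gene:
Ctsa (chr2:164833749-164833778, + strand): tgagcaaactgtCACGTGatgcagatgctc
Ctsd (chr7:142387908-142387937, - strand): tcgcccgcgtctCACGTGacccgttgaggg
Mcoln1 (chr8:3500462-3500491, + strand): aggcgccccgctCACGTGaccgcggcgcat
Lamp1 (chr8:13159088-13159117, + strand): agggcaagatatCACGTGgtccagcgccca
Gaa (chr11:119267811-119267840, + strand): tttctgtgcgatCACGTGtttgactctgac
Lgmn (chr12:102439124-102439153, - strand): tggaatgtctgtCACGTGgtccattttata
A match is a description of the letters in the window and not a measured binding site.

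In WT, 8 of the 40 members were called higher in MZ than in FO cells and 0 were called higher in FO. They were the progranulin gene Grn, the prosaposin gene Psap, the protease genes Ctsb, Lgmn, Ctsc and Ctsz, and the glycosidase genes Gusb and Gaa. Calls needed a limma p-value, adjusted by Benjamini-Hochberg over all 14761 genes tested, of 0.05 or less and a difference of 1.5-fold or more. On GRCm38 the 8 genes lie apart, with Grn on chromosome 11 from 102430315 to 102437048, Psap on chromosome 10 from 60277627 to 60302597, Ctsb on chromosome 14 from 63122462 to 63145923, Lgmn on chromosome 12 from 102394084 to 102439813. Further, Ctsc on chromosome 7 from 88278085 to 88310888, Ctsz on chromosome 2 from 174427493 to 174439039, Gusb on chromosome 5 from 129989011 to 130003049 and Gaa on chromosome 11 from 119267887 to 119285454 complete the set. Of all genes tested, 7.41% were called higher in MZ and 4.62% higher in FO, against 20% and 0% of the members. The median log2 difference (FO minus MZ) over the 40 members was -0.03, and that of all genes was 0.00. In bulk RNA, fewer cells of a type and less RNA per cell cannot be told apart.

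In cKO, 5 members were called higher in MZ and 0 higher in FO, where 8.18% and 5.54% of all genes were called. All 5, Grn, Psap, Ctsb, Ctsc and Lgmn, were also called in WT. With both genotypes fitted together 6 members were called higher in MZ, with Gusb added, against 10.9% of all genes called higher in MZ and 7.45% called higher in FO. The sign of the difference was the same in WT and cKO for 40 of 40 members, in separate libraries of each subset. The share of all genes with the same sign is not given here, so this count has no background. Some differences were near 0, such as that of Ctss (log2 -0.02 in WT, -0.06 in cKO). Of the 22 members that did not pass the adjusted p in any main fit of FO against MZ, 16 changed sign in WT and 7 in cKO under at least 1 alternative. By another measure, all 4 MZ libraries lay above all 4 FO libraries for 11 members (27.5%) and all 4 FO libraries above all 4 MZ libraries for 6 (15%), where these shares were 18.6% and 17.9% over all genes tested.

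**Figure D1:**
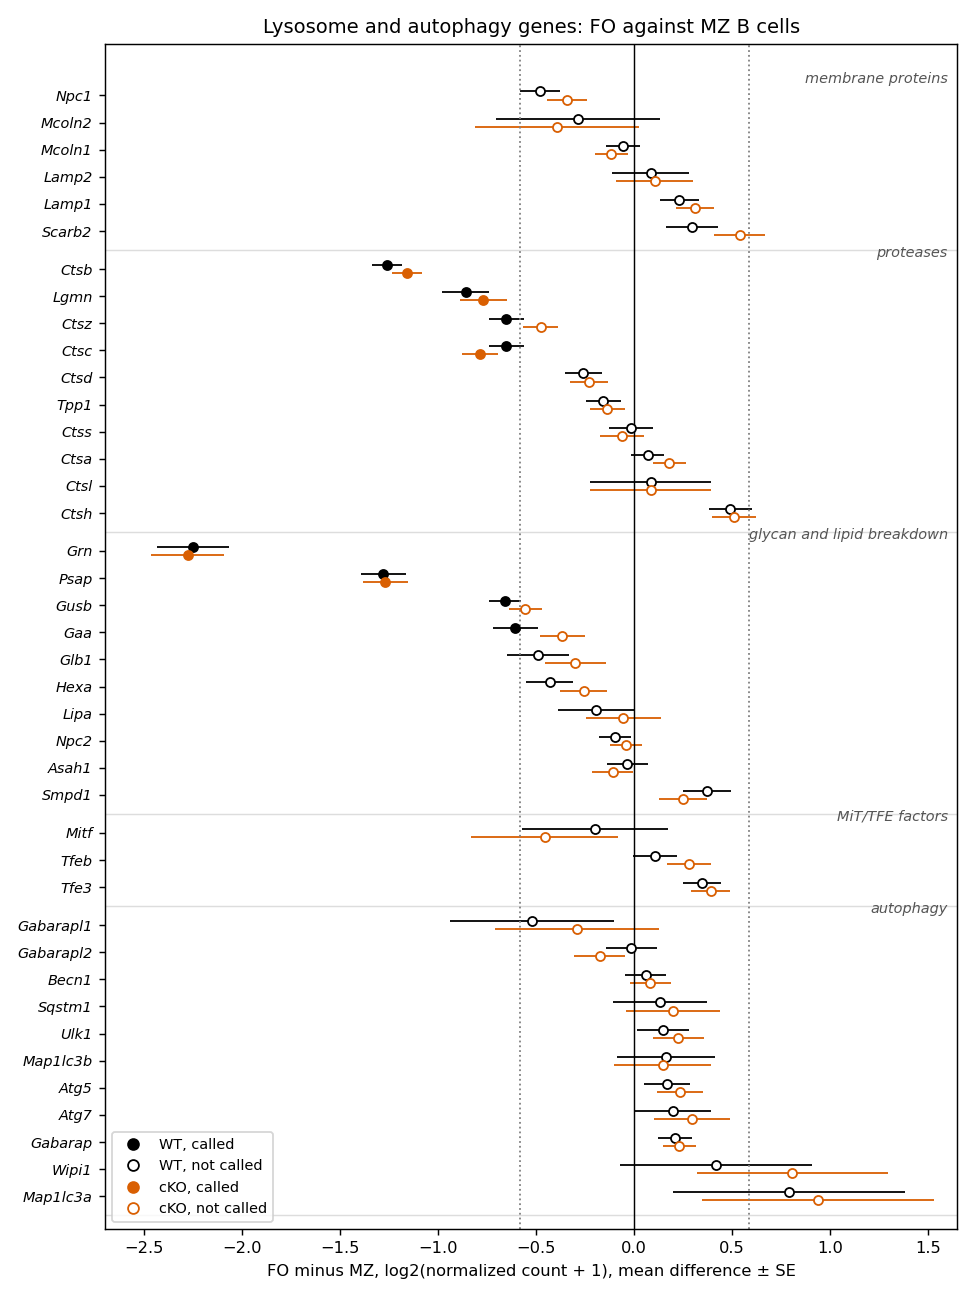
FO minus MZ difference of log2(normalized count + 1) for the 40 members, grouped by role, in WT (black) and cKO (orange). Bars are the standard errors from limma, filled points are called, and dotted lines mark 1.5-fold. Grn, Psap and Ctsb lie farthest to the left in both genotypes, and the filled points all lie on the MZ side.

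Grn, which encodes progranulin, a secreted protein that is cut into granulins in the lysosome, had 776 and 1145 (FO) against 4081 and 4937 (MZ) in WT, and 756 and 860 (FO) against 3796 and 4061 (MZ) in cKO, as normalized counts. Every MZ library lay above every FO library, and the lowest MZ value, 3796 in cKO MZ replicate 1, was far above the highest FO value, 1145 in WT FO replicate 2. The difference was -2.25 on the log2 scale in WT (SE 0.184, limma adjusted p = 0.000339), or 4.76-fold, and -2.28 in cKO (limma adjusted p = 0.000287), or 4.87-fold. Psap, whose product prosaposin binds progranulin and is cut into the saposins, cofactors of sphingolipid breakdown, had 13172 and 15170.5 (FO) against 33019.8 and 35934 (MZ) in WT, and 13185 and 14480 (FO) against 31674 and 35270.4 (MZ) in cKO. Its MZ libraries also stood clear of its FO libraries, by 2.44-fold in WT (log2 -1.28, SE 0.113, limma adjusted p = 0.00047) and 2.42-fold in cKO (limma adjusted p = 0.000421).

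**Figure D2:**
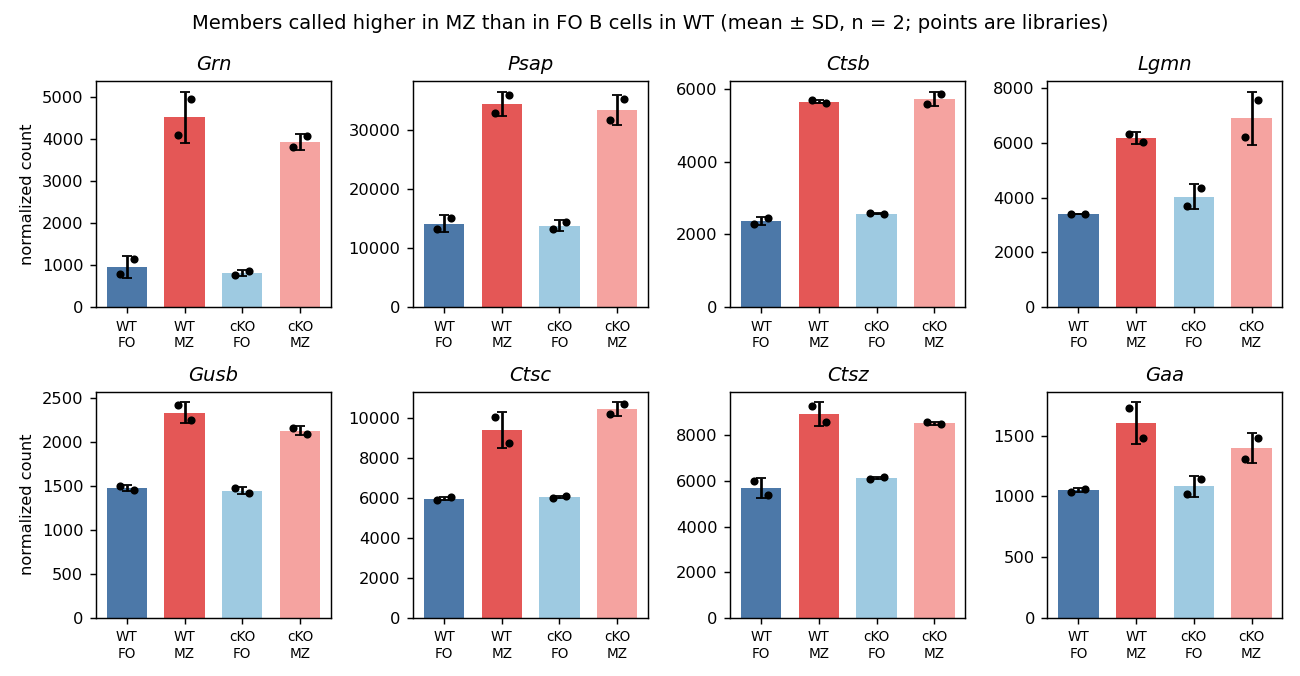
Normalized counts of the 8 members called higher in MZ than in FO cells in WT, each on its own axis from 0. Bars are group means, error bars the SD of 2 libraries and points the libraries. In all 8 panels both MZ libraries lie above both FO libraries within each genotype.

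Among the proteases, Ctsb, the cysteine protease cathepsin B, had 2292 and 2441 (FO) against 5680.5 and 5615 (MZ) in WT, and 2574 and 2549.5 (FO) against 5590.5 and 5861 (MZ) in cKO. Its replicates were close together and the subsets far apart, at 2.39-fold in WT (log2 -1.26, SE 0.0769, limma adjusted p = 0.000118) and 2.23-fold in cKO (limma adjusted p = 0.000136). Lgmn, or legumain, an endopeptidase that cuts after asparagine and activates several cathepsins, had 3405 and 3395 (FO) against 6326 and 6019 (MZ) in WT, and 3707 and 4364 (FO) against 6206 and 7581 (MZ) in cKO. Again no MZ library fell to the level of an FO library, and the difference was 1.81-fold in WT (log2 -0.86, SE 0.12, limma adjusted p = 0.00318) and 1.71-fold in cKO (limma adjusted p = 0.00437). Ctsc, the dipeptidyl peptidase cathepsin C, had 5896 and 6025 (FO) against 10022 and 8753 (MZ) in WT, and 5997 and 6089.5 (FO) against 10198 and 10667 (MZ) in cKO. It was higher in MZ by 1.57-fold in WT (log2 -0.65, SE 0.0895, limma adjusted p = 0.00298) and 1.73-fold in cKO (limma adjusted p = 0.00116). The WT call of Ctsc fell under 1.5-fold without WT MZ replicate 1 (log2 -0.55, limma adjusted p = 0.019).

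Ctsz, the carboxypeptidase cathepsin Z, had 6007 and 5377 (FO) against 9299 and 8575 (MZ) in WT, and 6092 and 6181 (FO) against 8592 and 8501 (MZ) in cKO. The MZ libraries were the higher ones in both genotypes, by 1.57-fold in WT (log2 -0.65, SE 0.0879, limma adjusted p = 0.00271) and by 1.39-fold in cKO (limma adjusted p = 0.00867), which is under the fold cutoff. Without WT FO replicate 2 its WT value was log2 -0.57 (limma adjusted p = 0.0156), also under the cutoff. Over both genotypes it was just under 1.5-fold, at log2 -0.56, and it passed at -0.61 without WT FO replicate 1, at -0.59 without WT MZ replicate 2 and at -0.70 after quantile normalization. Ctsh, the aminopeptidase cathepsin H, went the other way, with 9980.4 and 10252 (FO) against 6834 and 7580.2 (MZ) in WT, and 8731 and 10646 (FO) against 6631 and 6909 (MZ) in cKO. All of its FO libraries lay above all of its MZ libraries, and it passed the adjusted p without the fold cutoff in both genotypes, at log2 0.49 in WT (SE 0.111, limma adjusted p = 0.0221) and at a like 0.51 in cKO (limma adjusted p = 0.0169). Without cKO FO replicate 1 it was called in cKO, at log2 0.65 (limma adjusted p = 0.0181).

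The other 5 proteases were not called. Ctss, cathepsin S, the main protease of the invariant chain in B cells, had 14768 and 16449 (FO) against 15622 and 15948 (MZ) in WT, and 14795 and 17796 (FO) against 17329 and 16596 (MZ) in cKO, and its subsets overlapped (WT log2 -0.02, cKO -0.06). Ctsd, the aspartic protease cathepsin D, passed only over both genotypes, at log2 -0.25 (limma adjusted p = 0.0274), with 859 to 1063 in FO and 975.0 to 1215 in MZ libraries. A share of 34.4% of its exon bases lies under exons of a gene on the same strand, so that its reads are less certain than those of the called members. Ctsa, Tpp1 and Ctsl, a carboxypeptidase, a tripeptidyl peptidase and cathepsin L, had overlapping subsets, and Ctsl was low, at 136 to 252 in the 8 libraries.

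Of the 10 genes for glycan and lipid breakdown, 9 had a lower mean in FO than in MZ cells in each genotype. All MZ libraries lay above all FO libraries for 6 of them. Among all 14761 genes tested, 7318 in WT and 7307 in cKO were lower in FO, and 18.6% had all MZ above all FO libraries. Gusb, the beta-glucuronidase that removes glucuronic acid from glycosaminoglycans, had 1499.9 and 1456 (FO) against 2417 and 2253 (MZ) in WT, and 1476 and 1421 (FO) against 2164 and 2094 (MZ) in cKO. It was 1.58-fold higher in MZ in WT (log2 -0.66, SE 0.0822, limma adjusted p = 0.00195) and 1.47-fold higher in cKO (limma adjusted p = 0.00355), under the cutoff, and both MZ groups were clear of the FO libraries. Over both genotypes it was 1.52-fold (limma adjusted p = 0.00023), and fell just under the cutoff, to log2 -0.58, without WT MZ replicate 1. Gaa, the acid alpha-glucosidase that degrades glycogen, had 1037 and 1061 (FO) against 1723 and 1483 (MZ) in WT, and 1020 and 1144 (FO) against 1309.7 and 1483 (MZ) in cKO. The WT difference was 1.52-fold (log2 -0.61, SE 0.115, limma adjusted p = 0.0112) and the cKO difference 1.29-fold (limma adjusted p = 0.0626). The WT call of Gaa was lost without WT FO replicate 1 (limma adjusted p = 0.0549) and without WT MZ replicate 1 (log2 -0.50, limma adjusted p = 0.0659).

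Glb1 and Hexa, the beta-galactosidase and the alpha subunit of the beta-hexosaminidase, had all MZ libraries above all FO libraries with smaller differences. Glb1 was at 493 to 674 in FO and 753 to 872 in MZ libraries (WT log2 -0.49, limma adjusted p = 0.0726). Its WT value was log2 -0.72 without WT FO replicate 2, past the fold cutoff, and -0.27 without WT FO replicate 1. Hexa was at 1965 to 2382 in FO and 2581 to 3089 in MZ, and passed the adjusted p without the fold cutoff in WT (log2 -0.43, limma adjusted p = 0.0445) but not in cKO (-0.26, limma adjusted p = 0.174). Smpd1, the acid sphingomyelinase, was the member of this group that lay on the FO side, with 698 to 806 in FO and 549 to 638 in MZ libraries and log2 0.31 over both genotypes (limma adjusted p = 0.0278). The acid lipase Lipa, the acid ceramidase Asah1 and the cholesterol carrier Npc2 had differences between -0.20 and -0.04 on the log2 scale and did not pass.

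No membrane protein was called in WT, in cKO or over both genotypes, where 12%, 13.7% and 18.4% of all genes tested were, in either direction. Npc1, which passes cholesterol from Npc2 to the lysosomal membrane, had 941 and 1067 (FO) against 1361 and 1438 (MZ) in WT, and 921 and 887 (FO) against 1094 and 1201 (MZ) in cKO. All 4 MZ libraries lay above all 4 FO libraries, and it passed the adjusted p in WT (log2 -0.48, limma adjusted p = 0.0179) and over both genotypes (-0.41, limma adjusted p = 0.004) without reaching 1.5-fold. Lamp1, an abundant glycoprotein that lines the membrane, and Scarb2 (LIMP-2), the receptor that carries glucocerebrosidase to the lysosome, lay on the FO side. Lamp1 was at 3524 to 3982 in FO and 2936 to 3280.1 in MZ libraries, with log2 0.27 over both genotypes (limma adjusted p = 0.0197). Scarb2 was at 1680.1 to 1995 in FO and 1170.1 to 1555 in MZ, with log2 0.54 in cKO (limma adjusted p = 0.027). Its cKO value was 0.68 without cKO MZ replicate 2, above the fold cutoff, and 0.40 without cKO MZ replicate 1. Lamp2 and the calcium channel gene Mcoln1 had overlapping subsets and differed by at most 0.12 in size on the log2 scale in either genotype.

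Of the MiT/TFE factors none was called in WT, in cKO or over both genotypes, where 12%, 13.7% and 18.4% of all genes tested were. The member that passed the adjusted p lay on the FO side. Tfe3 had 1141 and 1275 (FO) against 980 and 917 (MZ) in WT, and 1405 and 1383 (FO) against 1026 and 1103 (MZ) in cKO. Each FO library was above each MZ library, by log2 0.35 in WT (SE 0.0979, limma adjusted p = 0.0493), and by a like 0.39 in cKO (limma adjusted p = 0.0292). Without cKO FO replicate 1, the cKO library with Xist, the cKO value of this X-linked gene was 0.38 (limma adjusted p = 0.125). Tfeb was at 2864 to 3188 in FO and 2337 to 2971 in MZ libraries, and the ranges overlapped. Mitf was near the floor of the filter in every library, at 20.1 to 42.3 normalized counts.

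Of the 11 autophagy genes 0 were called in WT, in cKO or over both genotypes. In either direction, 12%, 13.7% and 18.4% of all genes tested were called, so few calls would be awaited among 11 genes. The median of their log2 differences was 0.16 in WT and 0.23 in cKO, on the FO side. Gabarap, one of the ubiquitin-like proteins coupled to autophagosome membranes, was the member that passed the adjusted p, over both genotypes. It was at 4195 to 4745 in FO and 3707 to 3849 in MZ libraries, which did not overlap, with log2 0.22 (limma adjusted p = 0.0265). Sqstm1 (p62), the receptor that brings ubiquitinated cargo to LC3, had 6695 and 4646 (FO) against 6479 and 3997 (MZ) in WT, and 6494 and 5838 (FO) against 5135 and 5602 (MZ) in cKO. Its replicates in WT lay farther apart than the subsets. Map1lc3b (LC3B) had 4306 and 2776 (FO) against 3858 and 2473 (MZ) in WT, and 4406 and 3712 (FO) against 3600.1 and 3715 (MZ) in cKO, with the same spread between the WT libraries. Map1lc3a (LC3A) had the largest difference of the 22 members that did not pass the adjusted p in any main fit, at log2 0.79 in WT and 0.94 in cKO. It had 433 and 162 (FO) against 274 and 85.1 (MZ) in WT, and 466 and 320 (FO) against 195 and 207 (MZ) in cKO. It was called higher in FO without WT MZ replicate 1 over both genotypes (log2 1.28, limma adjusted p = 0.026), and in cKO in a fit of the 4 cKO libraries alone (limma adjusted p = 0.016).

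The remaining autophagy members are the LC3 relatives Gabarapl1 and Gabarapl2, the initiating kinase gene Ulk1, the conjugation genes Atg5 and Atg7, the Vps34 complex member Becn1 and the phosphoinositide reader Wipi1. Their subsets overlapped in all 7, and Wipi1 was at 10.3 to 34.7 normalized counts. Gabarapl1 lay on the MZ side in both genotypes (WT log2 -0.52, cKO -0.29), with 147 to 309 in FO and 183 to 404 in MZ libraries.

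**Figure D3:**
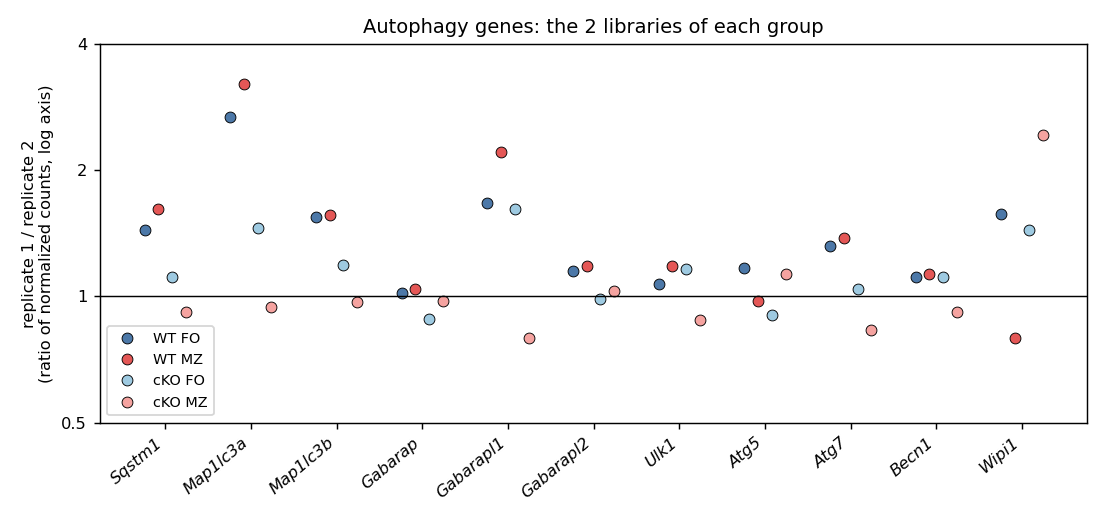
Ratio of replicate 1 to replicate 2, on a log axis, for the 11 autophagy members in each group of 2 libraries. Map1lc3a, Sqstm1, Map1lc3b, Gabarapl1 and Atg7 lie above 1 in both WT groups, and 10 of the 11 cKO MZ points lie within 0.796 to 1.13.

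The differences were compared between the genotypes with the interaction of subset and genotype. By limma 0 members were called, as were 0% of all genes, 0 members had an unadjusted p under 0.05, and edgeR and DESeq2 gave the same 2 counts of 0. Of the 3 members called in WT and not in cKO, Gaa differed between the genotypes by log2 0.24 (SE 0.163), Ctsz by 0.17 (SE 0.124) and Gusb by 0.10 (SE 0.116), each with a limma adjusted p of 1. These 3 are therefore not shown to differ between WT and cKO.

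Between cKO and WT, 0 members were called in FO cells, where 0.0677% of all genes were, and 0 in MZ cells, where 0.0339% were. In FO cells 2 members, Ctsd and Mcoln2, had an unadjusted p under 0.05 by limma, 1 by edgeR and 0 by DESeq2. In MZ cells 1 member, Npc1, did so by limma, 2 by edgeR and 1 by DESeq2. Mcoln2, a calcium channel of recycling endosomes and lysosomes, had 1108 and 1401 (FO) against 1151 and 2012 (MZ) in WT, and 827 and 483 (FO) against 1220 and 565 (MZ) in cKO. Replicates lay far apart in WT MZ, cKO FO and cKO MZ, its subsets overlapped, and the cKO minus WT value was log2 -0.98 in FO (SE 0.42, limma adjusted p = 1) and -0.87 in MZ (limma adjusted p = 0.998). Lamp2 and Tfe3 are X-linked, and the genotypes also differed in Xist as given above. Their cKO minus WT values were log2 -0.05 and 0.21 in FO and -0.07 and 0.17 in MZ, with no call.

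Members were ranked by level per kilobase of exon, while the shares and sums given after the ranks are not divided by exon length. As WT group means of normalized counts per kilobase, Ctss stood first in FO, at 11494, and Psap second, at 5164, while in MZ Psap stood first, at 12564, and Ctss second, at 11624. Grn moved from 25th of 40 in FO, at 277 per kilobase, to 10th in MZ, at 1298. Ctsb moved from 19th, at 391, to 13th, at 933. Of the summed normalized counts of the 40 members, Psap made up 11.5% to 13.2% in the FO libraries and 22% to 24.3% in the MZ libraries. The corresponding share of Grn was 0.663% to 0.998% in FO and 2.63% to 3.34% in MZ. The 10 glycan and lipid genes together summed to 24130.3 to 27002 in FO and 47852 to 53731 in MZ libraries. Psap alone held 13172 to 15170.5 of this sum in FO and 31674 to 35934 in MZ libraries. The 11 autophagy genes summed to 17661 to 22494 in FO and 15667 to 20825 in MZ libraries.

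Macrophages are rich in the same hydrolases, so their markers were read beside the calls. Of 19 macrophage markers 14 passed the filter, 4 (Spic, Hmox1, Cd5l and Cd68) were called higher in MZ over both genotypes and 0 lower. Beside this and the other marker counts below, 10.9% of all genes tested were called higher in MZ and 7.45% higher in FO. The 19 macrophage markers summed to 997 to 1778 in the FO libraries and 1238 to 3026 in the MZ libraries. Only WT MZ replicate 1, at 1238, lay within the FO range, and the remaining MZ libraries were at 2098 to 3026. Lyz2 was at 95.3 to 559, Cd68 at 173 to 384, Hmox1 at 82.5 to 333, Slc40a1 at 51 to 294, Spic at 62.8 to 293 and Adgre1 at 53 to 216 over the 8 libraries. The markers Timd4, Siglec1, Fcgr1 and Cd14 were at most 16.8 normalized counts in any library, and Timd4 was at 0 in cKO FO replicate 1, while C1qa, C1qb, C1qc and Csf1r ranged from 22.2 to 299. WT MZ replicate 1 held a macrophage sum of 1238, below the 1778 of WT FO replicate 2, and its Grn was 4081 against 1145, its Psap 33020 against 15171 and its Ctsb 5681 against 2441. In the same pair the 4 called markers were higher in WT MZ replicate 1, with Spic at 178 against 62.8, Cd68 at 378 against 173, Hmox1 at 175 against 147 and Cd5l at 55.9 against 51.4. The part of macrophage transcripts in the calls was not tested. Dendritic cell markers, of which 2 were called higher in MZ and 1 higher in FO, summed to 215 to 315 in FO and 314 to 520 in MZ libraries, and their part was not tested. Plasma cell markers, with Mzb1 and Prdm1 called higher in MZ and Sdc1 called higher in FO, summed to 15035 to 32669 in FO and to 21419 to 42099 in MZ, most of it Irf4, which was at 10907 to 37342. T cell markers summed to 786 to 1286 in FO and to 751 to 1245 in MZ libraries, most of it Lck, which was at 692 to 1226. Trac was called higher in MZ, at 6.72 to 13.3 in FO and 21.9 to 38.9 in MZ libraries, and its part was not tested. The 8 B cell markers summed to 211941 or more in every library. Without cKO FO replicate 1 and cKO MZ replicate 1 together, 6 members were called over both genotypes, as with all libraries.

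**Figure D4:**
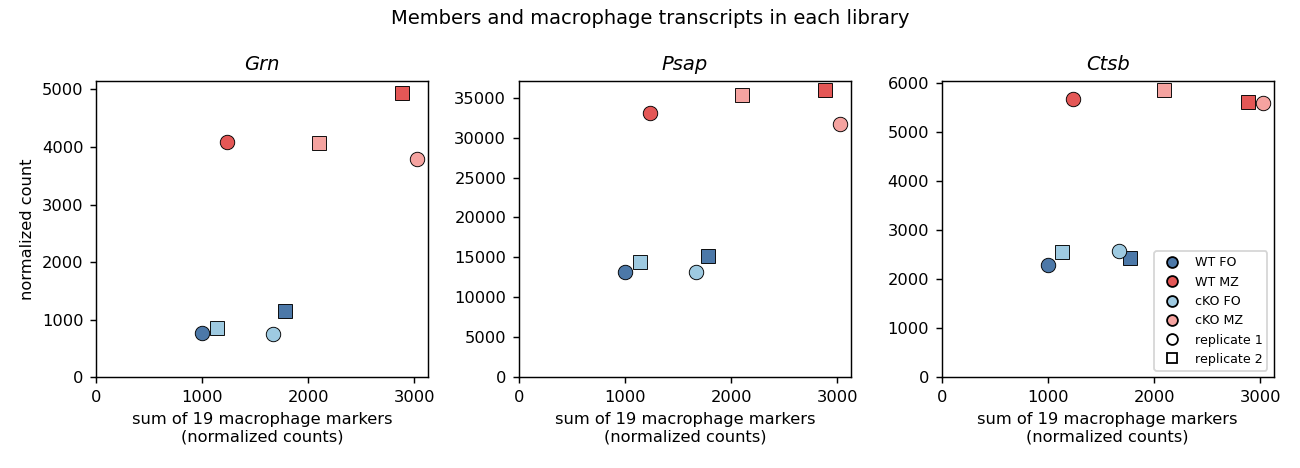
Normalized counts of Grn, Psap and Ctsb in each library against the sum of 19 macrophage markers, with both axes from 0. Libraries of the MZ groups (red and pink) lie above all FO libraries (blue) in each panel. Along the horizontal axis WT MZ replicate 1 lies among the FO libraries, and the remaining MZ libraries lie to the right of every FO library.

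Reads can also be shared with neighbours. Exons of 14 members overlap exons of another gene in GENCODE, and whether strand was used in counting is not given in the sources used here. Among the 8 called members the overlap was 12.8% of exon bases for Ctsb, 1.96% for Grn and 0.694% for Ctsz, each with a gene on the opposite strand, and 0 for Psap, Lgmn, Ctsc, Gusb and Gaa.

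Other genes of the same compartment were counted by list, over both genotypes. Each count stands beside 10.9% of all genes tested called higher in MZ and 7.45% called higher in FO. Of the genes named from these lists, Atp6v0a1, Tpcn1, Laptm5, Nprl3 and Rragd were not called in WT alone. Tax1bp1 and Bnip3 were not called in cKO alone, and Ctsk was called in neither genotype alone. The interaction of subset and genotype was called for 0% of all genes. Of 32 other lysosomal hydrolases tested 6 were called higher in MZ and 3 higher in FO. Arsb, the arylsulfatase of dermatan sulfate, was at 252 to 315 normalized counts in FO and 651 to 739 in MZ (log2 -1.31, SE 0.0965, limma adjusted p = 6.79e-05). Gm2a, the activator that presents GM2 ganglioside to the beta-hexosaminidase, was at 4153 to 5132 normalized counts in FO and 7681 to 8268 in MZ (log2 -0.86). On the other side, Galc, the galactosylceramidase, was at 82.8 to 94.8 normalized counts in FO and 8.97 to 40.8 in MZ (log2 2.16, SE 0.279, limma adjusted p = 0.000928). Ctsk, cathepsin K, was low, at 38.2 to 56.9 normalized counts in FO and 10.3 to 23.9 in MZ (log2 1.44).

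Of 21 other lysosomal membrane proteins tested 3 were called higher in FO and 2 higher in MZ, where 7.45% and 10.9% of all genes were. The nucleoside carrier Slc29a3 was at 841 to 1075 normalized counts in FO and 2453 to 3039 in MZ (log2 -1.45, SE 0.0755, limma adjusted p = 1.55e-05), and Laptm4b was at 22.4 to 30.2 normalized counts in FO and 56.7 to 80.9 in MZ (log2 -1.33). The peptide carrier Slc15a3 was at 312 to 559 normalized counts in FO and 129 to 255 in MZ (log2 1.43, limma adjusted p = 0.0026), the cation channel gene Tpcn1 at 1090.3 to 1208 normalized counts in FO and 703 to 806 in MZ (0.61), and Laptm5, a lysosomal protein of blood cells, at 19529 to 24382 normalized counts in FO and 10726 to 18153 in MZ (0.66). Of the 17 subunits and accessory proteins tested of the V-ATPase, the proton pump that acidifies the lumen, 1 was called, Atp6v0a1, higher in FO, at 2792 to 3669.8 normalized counts in FO and 1273 to 2202 in MZ (log2 1.03, limma adjusted p = 0.0046). Of 9 genes for mannose 6-phosphate sorting 1 was called, the adaptor gene Gga2, higher in FO, at 9087 to 10346 normalized counts in FO and 5462 to 6594 in MZ (log2 0.68).

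Of 36 other autophagy genes 2 were called higher in FO and 2 higher in MZ, where 7.45% and 10.9% of all genes were. Pik3r4, the regulatory subunit of the Vps34 lipid kinase, was at 2619 to 3831 normalized counts in FO and 11451 to 23610.1 in MZ (log2 -2.33, SE 0.226, limma adjusted p = 0.000245), with 23610.1 and 11451 in the 2 WT MZ libraries. Optn, a cargo receptor, was at 144 to 229 normalized counts in FO and 363 to 465 in MZ (log2 -1.22), while the cargo receptor gene Tax1bp1 was at 7509 to 8090.4 normalized counts in FO and 5112 to 5228 in MZ (0.59) and the mitophagy gene Bnip3 at 67.2 to 85.6 normalized counts in FO and 27.2 to 60.8 in MZ (0.96). Of 24 genes of mTORC1 signalling at the lysosome 4 were called higher in MZ and 0 higher in FO. Sesn3, a sestrin, was at 7014 to 8559.9 normalized counts in FO and 11415 to 13145 in MZ (log2 -0.65), the GATOR1 subunit gene Nprl3 at 937 to 1099 normalized counts in FO and 1412 to 1649 in MZ (-0.63) and the Rag GTPase gene Rragd at 29.2 to 74.2 normalized counts in FO and 97.8 to 113 in MZ (-1.03, limma adjusted p = 0.0134). Of 2 cystatins tested, inhibitors of the cathepsins, 0 were called by limma, and 1 had an unadjusted p under 0.05. The median log2 difference was -0.15 over the hydrolases, -0.11 over the membrane proteins, 0.01 over the V-ATPase, 0.02 over the sorting genes, 0.19 over the autophagy genes, 0.01 over the mTORC1 genes and 0.14 over the cystatins, beside 0.00 over all genes.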

How the data were processed

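RNA of the sorted cells was depleted of ribosomal RNA and sequenced as single-end reads. The authors aligned the reads with HISAT2 to mm10, counted them on genes (featureCounts and HTSeq are named) and normalized them with DESeq2, with versions not given in the sources used here. The signal they deposited is a table of normalized counts, each the reads of a gene over the size factor of that library. Whole reads, within 0.01, were recovered for 100% of the values in each of the 8 libraries.

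Normalized counts, on the scale of log2(count + 1), were modelled in R 4.3.3 by limma 3.58.1 (functions lmFit and eBayes, the latter with trend) over the 14761 genes with a mean of at least 10, with the 4 groups in 1 fit. Fold changes of low genes are understated by the pseudocount. The 2 libraries a group limit the precision, and members near the filter, such as Mitf and Wipi1, also carry counting error. Alternatives were a pseudocount of 0.5, no filter, a minimum mean of 50, quantile normalization, only the libraries compared, a replicate block, recovered reads in DESeq2 1.42.0 and in edgeR 4.0.16, a 2-fold cutoff, no fold cutoff, and each library left out in turn. Leaving out the first replicate of both cKO groups together, and a replicate block with the cKO MZ numbers exchanged, were added after seeing the data. Scripts were tested on simulated data. The members and lists were chosen with earlier results of these data known. Members called in FO against MZ are named with values in every library and the others by range, and up to 3 called genes in each direction of each pathway list by smallest p. Single members outside that rule, such as Ctsh, Tfe3, Sqstm1 and Mcoln2, got their values after these were seen. Coordinates and exon lengths are from GENCODE M21 on GRCm38. The 8 ATAC-seq samples were not analysed here, and results for some genes are left out.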

Additional observations from a re-analysis of the deposited data

How the results depend on the processing

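With a 2-fold cutoff 3 members (Grn, Psap and Ctsb) were called in WT, in cKO and over both genotypes (7.5% of members), where 8.02% of all genes were called in WT, 8.98% in cKO and 11.2% over both. Without a fold cutoff 12 were called in WT, 10 in cKO and 18 over both genotypes (30%, 25% and 45%), where 16.9%, 19.6% and 33.4% of all genes were. With each library left out in turn the counts ran from 6 to 8 in WT, 5 to 6 in cKO and 6 to 7 over both genotypes, where an arm with 1 library was assumed to vary like the others. With a replicate block 8 members were called in WT, 5 in cKO and 7 over both genotypes, with Map1lc3a added. Labels do not say that replicate numbers pair the libraries, and the deviations of same-numbered libraries correlated at 0.591 between WT FO and WT MZ, at -0.002 between cKO FO and cKO MZ, and at -0.296 to 0.294 between genotypes. The counts between cKO and WT and in the interaction were 0 under every alternative run for each, and the block with exchanged numbers was run for cKO against WT in MZ alone. Of the values of the 18 members that passed an adjusted p in a main fit, 623 stayed called or stayed not called under the alternatives. A further 14 became called, 11 were no longer called and 0 turned in sign. Calls need both the adjusted p and the fold cutoff of the setting, so these numbers do not measure how stable the adjusted p was. Tfe3 in WT counts as unchanged though its limma adjusted p went from 0.0493 to 0.142 with only the libraries compared. The 14 and 11 include values that changed only because the fold cutoff was removed or raised to 2-fold. Of the other 22 members, 16 in WT and 7 in cKO changed sign under at least 1 alternative. Over all genes, a fit of the 4 WT libraries alone called 388 on the FO side and 646 on the MZ side, against 682 and 1094, and quantile normalization moved these to 757 and 977 in WT and to 1343 and 1378 over both genotypes, against 1100 and 1611.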

Other observations

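The autophagy members differed between the 2 WT libraries of a subset in the same way in FO and MZ. In both subsets 9 of 11 (81.8%) were higher in WT replicate 1 than in WT replicate 2, where 34.4% of all genes tested were. In cKO 1 of 11 (9.09%) was higher in replicate 1 in both subsets, where 21.8% of all genes tested were. Map1lc3a was higher by 2.68-fold in FO and 3.21-fold in MZ, Sqstm1 by 1.44-fold and 1.62-fold, and Map1lc3b by 1.55-fold and 1.56-fold. Irf4 differed in the same direction, at 28655 and 10907 in WT FO replicates 1 and 2 and at 37342 and 13512 in WT MZ. Prdm1 did likewise, at 153 and 77.1 in WT FO replicates 1 and 2 and at 594 and 279 in WT MZ. So did Xbp1, at 2764 and 2520 in WT FO and at 2947 and 2789 in WT MZ. Of the same plasma cell list, Jchain, Sdc1 and Mzb1 were instead higher in WT replicate 2 in both subsets. The part of these transcripts in the result was not tested. These counts were made after the values were seen, and replicates of a group have no order. Of the 10 glycan and lipid genes, 7 were instead higher in WT replicate 2 in both subsets, where 5692 of all 14761 genes tested were.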
